A study of Mus musculus with 12 samples.

Results

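Ten-eleven translocation (TET) enzymes and most histone lysine demethylases belong to one family of dioxygenases that use iron, 2-oxoglutarate and molecular oxygen, and they are inhibited by succinate and fumarate. The Kdm enzymes with a Jumonji C (JmjC) domain remove methyl groups from histone lysines, and the TET enzymes oxidize 5-methylcytosine in DNA to 5-hydroxymethylcytosine. Because these reactions need oxygen and a TCA cycle intermediate, the enzymes are often discussed beside hypoxia inducible factor 1α (HIF1α), and several of their genes are known HIF targets in other cells. The rows described here, from a table of read counts of mouse kidney cortex, are those of 10 genes, chosen by symbol: Kdm2b, Kdm3a, Kdm4a, Kdm4b, Kdm4c, Kdm5b, Kdm6b, Tet1, Tet2 and Tet3. These are 10 of 37681 genes in the table, and all 10 were among the 19399 with enough reads to be tested.

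Kidney cortex, cut as a thin outer slice, came from untreated 18-month-old male mice. The TG+ mice (43-29, 43-49 and 43-75) carry the TRACK transgene, γ-HIF1αM3, a constitutively active HIF1α expressed in proximal tubules from the GGT promoter, and the TG- mice (43-26, 43-50 and 43-76) are wild-type littermates. Both groups are C57BL/6. The 2 kidneys of each of the 6 mice gave 12 libraries of 21888584 to 33704850 counted reads. The kidneys of a mouse were summed, so each value below is that of 1 mouse unless a kidney is named, and n = 3 mice per group. Levels are given as normalized CPM, counts scaled to a library size that edgeR's TMM method corrects for composition.

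The 6 HIF1 reference genes, chosen because the study itself reports them in these mice and so no independent evidence, summed to between 1096 and 1540 CPM in TG+ mice and between 127.4 and 139.2 CPM in TG- mice, whereas the row for mouse Hif1a lay between 86.33 and 109 CPM in TG+ and between 102.6 and 106.6 CPM in TG- mice. Markers of proximal tubule, the cell type in which the transgene is expressed, summed to 34920 to 38410 CPM in TG+ and 47670 to 50940 CPM in TG- cortex, and 10 of 15 fell at an adjusted p below 0.05, with 0 rising. Over the same mice the sum of 19 immune cell markers was 502.2 to 550.5 CPM in TG+ and 275.9 to 346.1 CPM in TG-, that of 9 endothelial markers was 683 to 740 and 398.8 to 518.7 CPM, that of 9 stroma markers was 289.2 to 391.8 and 183.8 to 216.2 CPM, and that of 11 proliferation markers was 34.87 to 54.06 and 28.07 to 31.83 CPM. At the same adjusted p, 13 immune, 8 endothelial, 6 stroma and 5 proliferation markers rose and 0 fell. With 1 mouse left out the immune count was 12 to 15 and the endothelial count 7 to 9, but the stroma count was 2 without 43-75 or 43-76 and 3 without 43-49, and the proliferation count was 1 without 43-50, 2 without 43-49 or 43-26 and 3 without 43-75 or 43-76. In none of these lists was a marker at 0 in every library. Of 9 markers of other nephron segments 0 were called in edgeR's test, 3 were higher at an unadjusted p below 0.05, DESeq2 called 1 higher, 2 were called higher without 43-26, and 4 with scaling by library size alone. In such bulk RNA, fewer cells of a type cannot be told apart from less RNA per cell, and the part of these shifts in the levels below was not tested.

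The mRNA levels of Kdm4b, Kdm3a and Kdm5b were increased in TG+ kidney cortex, by 1.67-fold, 1.56-fold and 1.30-fold. The other 7 genes, among them all 3 TET genes, did not pass the test, and their groups overlapped. At an adjusted p below 0.05 (quasi-likelihood test of edgeR, Benjamini-Hochberg over all genes tested) 3 of 10 genes were thus higher, where 15.4% of all genes tested were higher, and 0 of 10 were lower, where 10.9% were lower. DESeq2 and an unadjusted p below 0.05 also gave 3 higher and 0 lower. At the study's threshold, a fold change above 2 or below 0.5 with an adjusted p below 0.01, 0 of 10 genes were called in either direction by edgeR or by DESeq2, beside 3.77% of all genes called higher and 0.211% called lower. The intervals of all 10 fold changes ended below 2-fold.

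**Figure D1:**
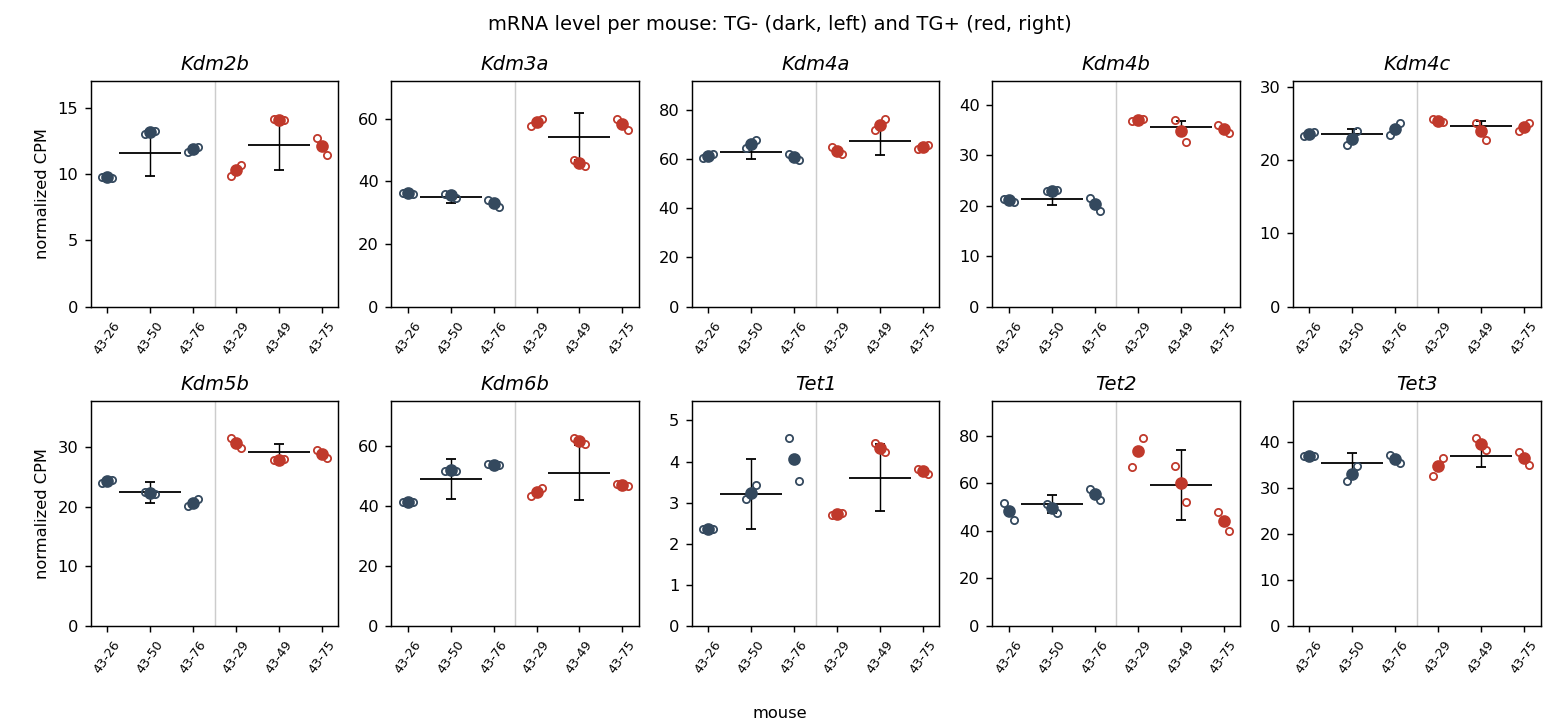
Normalized CPM (vertical axes, from 0) of the 10 genes in each mouse (horizontal axes). Filled points are mice, open points their kidneys, and the bars give the mean and SD of 3 mice. In Kdm3a, Kdm4b and Kdm5b every TG+ kidney lies above every TG- kidney, and in the other 7 genes the groups overlap.

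Kdm4b, which removes methyl groups from trimethylated and dimethylated lysine 9 of histone H3, stood at 37.0, 34.8 and 35.15 CPM in the TG+ mice 43-29, 43-49 and 43-75 and at 21.01, 22.94 and 20.26 CPM in the TG- mice 43-26, 43-50 and 43-76. The groups were far apart compared with their spread, and among single kidneys the lowest TG+ value was 32.53 CPM and the highest TG- value 23.05 CPM. The log2 fold change was 0.74 (SE 0.066), with a 95% interval of the fold from 1.499 to 1.849, and the adjusted p in edgeR's test was 0.000282.

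Kdm3a, which removes the last methyl groups of the same lysine, from its dimethylated and monomethylated forms, was at 58.85, 45.75 and 58.19 CPM in the TG+ mice and at 36.12, 35.49 and 32.95 CPM in the TG- mice. Mouse 43-49 was the lowest of the TG+ mice and still lay above all TG- mice. The log2 fold change was 0.64 (SE 0.10), with a fold interval of 1.33 to 1.83 and an adjusted p of 0.00357 (edgeR). In single kidneys it ranged from 44.83 to 60 CPM (median 56.96) in TG+ and from 31.82 to 36.18 CPM (median 35.38) in TG-.

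Kdm5b, a demethylase of trimethylated lysine 4 of histone H3, the mark of active promoters, was at 30.63, 27.87 and 28.92 CPM in the TG+ and at 24.31, 22.34 and 20.71 CPM in the TG- mice. The groups did not overlap, also by kidney (27.85 CPM the lowest in TG+, 24.58 CPM the highest in TG-), but the distance was smaller than for the other two. The log2 fold change was 0.38 (SE 0.075), with a fold interval of 1.15 to 1.463 and an adjusted p of 0.00939 (edgeR).

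For each of these 3 genes a 2-sided exact permutation test on 3 against 3 mice gave p = 0.1, the smallest this design allows. Every TG+ mouse lay above every TG- mouse in 3 of 10 genes, beside 23.4% of all genes tested, and below in 0 of 10, beside 20.8%. The calls of Kdm3a, Kdm4b and Kdm5b held in all 15 alternative analyses, and with any 1 mouse left out their log2 fold changes were 0.57 to 0.74, 0.70 to 0.79 and 0.32 to 0.43. The immune, endothelial, stroma and proliferation sums above also lay apart between the groups, in the same direction, and their part in these 3 calls was not tested.

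Among the genes not called, Kdm4a, another lysine 9 and lysine 36 demethylase of histone H3, had 63.12, 73.82 and 64.72 CPM in TG+ and 61.21, 65.83 and 60.75 CPM in TG- mice (log2 fold change 0.10, SE 0.073, adjusted p = 0.338 in edgeR). Kdm4c, of the same subfamily, was the steadiest gene, with 25.45, 24.0 and 24.54 CPM in TG+ and 23.65, 22.97 and 24.25 CPM in TG- mice. Its fold interval, 0.95 to 1.14, is the narrowest of the 10, and that of Kdm4a ran from 0.96 to 1.21.

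Kdm2b, which recruits a variant Polycomb complex to CpG islands, was at 10.33, 14.12 and 12.11 CPM in TG+ and at 9.77, 13.17 and 11.87 CPM in TG- mice, so that the groups interleaved (log2 fold change 0.071, SE 0.14). Kdm6b, a demethylase of the Polycomb mark on lysine 27 of histone H3, had 44.78, 61.62 and 47.04 CPM in TG+ and 41.35, 51.91 and 53.75 CPM in TG- mice (log2 fold change 0.062, SE 0.14). In both genes mouse 43-49 was the highest of all and 43-26 the lowest. Without 43-49 the log2 fold changes of Kdm2b and Kdm6b were -0.053 and -0.099, and without 43-26 they were -0.040 and -0.048, none of them called.

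Tet2 varied most between TG+ mice in absolute level, at 73.45, 60.12 and 44.05 CPM, against 48.27, 49.8 and 55.47 CPM in TG- mice. The TG+ mice thus held both the highest and the lowest value of the 6. The log2 fold change of 0.21 (SE 0.16) was not called (adjusted p = 0.389, edgeR), and its fold interval ran from 0.89 to 1.51. It rests on single mice, at 0.015 without 43-29 and 0.37 without 43-75 (adjusted p = 0.0556, edgeR). Tet2 also differed between the kidneys of a mouse by up to 1.29-fold.

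Tet3 was at 34.83, 39.62 and 36.54 CPM in TG+ and at 37.12, 33.04 and 36.35 CPM in TG- mice, with a log2 fold change of 0.060 (SE 0.071) and a fold interval of 0.93 to 1.17. Tet1, which is best known from embryonic stem cells, had the fewest reads, 121 to 246 per mouse. It was at 2.73, 4.34 and 3.76 CPM in TG+ and at 2.36, 3.24 and 4.05 CPM in TG- mice, and its fold interval was the widest, from 0.77 to 1.64. A change of Tet1 within these bounds was not detectable here.

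**Figure D2:**
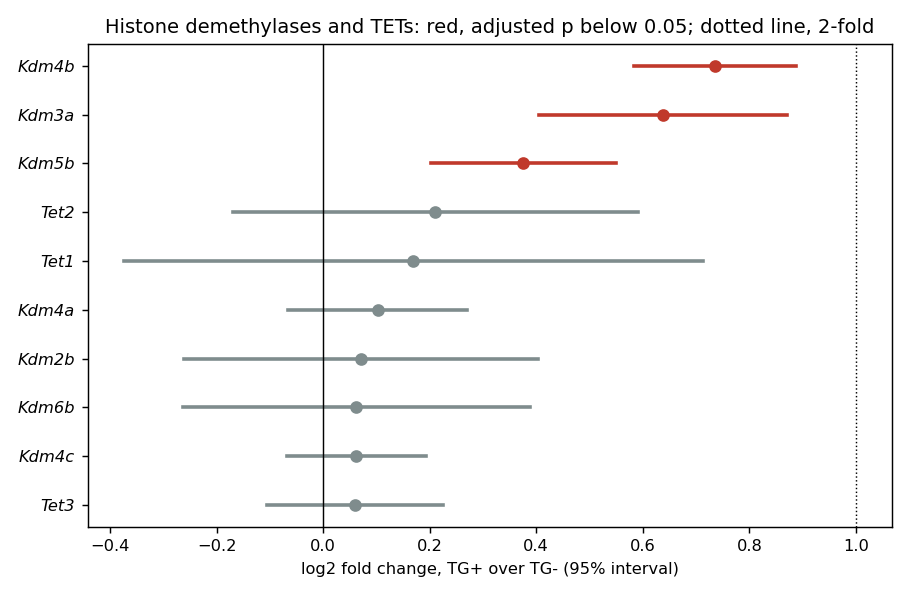
Log2 fold change of TG+ over TG- (horizontal axis) with its 95% interval for each of the 10 genes. Red marks an adjusted p below 0.05, and the dotted line marks 2-fold. The intervals of Kdm4b, Kdm3a and Kdm5b lie above 0, and all intervals end below 2-fold.

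All 10 log2 fold changes were above 0, as were 51.8% of those of all genes tested, with a median of 0.14 over the 10 genes and 0.012 over all genes. The count depends on single mice: it was 8 without 43-49 and 7 without 43-26. Scaling by library size alone raised the median of all genes to 0.13 and that of the 10 genes to 0.26, and changed the split of all calls at an adjusted p below 0.05, from 2982 higher and 2105 lower to 4511 higher and 947 lower. Without the TG- mouse 43-76 the first pair was 1985 and 1199, and the 3 calls among the 10 genes stood under both.

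The ratio of Kdm4b, Kdm3a and Kdm5b to a near relative, taken within each mouse so that no scaling is needed, was larger in every TG+ mouse than in every TG- mouse, which 3 mice a group cannot bring past the exact test. The log2 ratio of Kdm4b to Kdm4a reads was -0.77, -1.09 and -0.88 in TG+ mice and -1.54, -1.52 and -1.58 in TG- mice, a difference of 0.64 (SE 0.094). That of Kdm3a to Kdm3b, the other lysine 9 demethylase of the pair, was 0.18, -0.29 and 0.14 in TG+ and -0.58, -0.62 and -0.74 in TG- mice, a difference of 0.66 (SE 0.16). That of Kdm5b to Kdm5a was -0.90, -0.998 and -1.02 in TG+ and -1.26, -1.37 and -1.56 in TG- mice, a difference of 0.42 (SE 0.097). In these 3 of 8 pairs the groups did not overlap, where single genes did not overlap in 23.4% (TG+ above) and 20.8% (TG+ below) of those tested, and the share over other pairs of genes was not computed. The exact permutation p was 0.1 for each, the smallest possible, or 0.267 after Benjamini-Hochberg adjustment over the 8 pairs, so this test cannot reach a threshold of 0.05 with 3 mice a group.

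The other 5 pairs overlapped. The difference in log2 ratio was -0.16 (SE 0.21) for Kdm2b to Kdm2a, -0.038 (SE 0.11) for Kdm4c to Kdm4a, -0.060 (SE 0.25) for Kdm6b to Kdm6a, -0.0067 (SE 0.41) for Tet1 to Tet2 and -0.12 (SE 0.25) for Tet3 to Tet2. Kdm3b, Kdm5a and Kdm6a, and Kdm5c, another lysine 4 demethylase, had log2 fold changes of -0.027, -0.043, 0.12 and -0.011, and none was called.

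**Figure D3:**
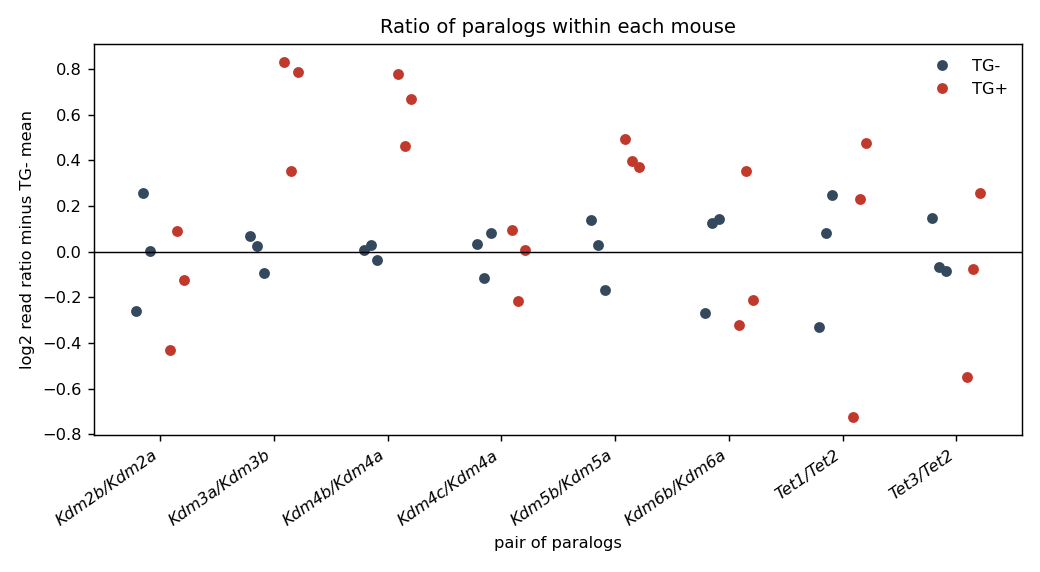
Log2 ratio of the reads of 2 related genes in each mouse, minus the mean of the TG- mice (vertical axis), for the 8 pairs. Each point is 1 mouse, TG- dark and TG+ red. The red and dark points are apart for Kdm3a/Kdm3b, Kdm4b/Kdm4a and Kdm5b/Kdm5a and mixed for the other 5 pairs.

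Over the 6 mice, log2 CPM of Kdm3a, Kdm4b and Kdm5b rose and fell together, with Pearson's r of 0.94 (Kdm3a and Kdm4b), 0.95 (Kdm3a and Kdm5b) and 0.94 (Kdm4b and Kdm5b). Kdm2b, Kdm6b and Tet1 had r of 0.91 (Kdm2b and Kdm6b), 0.87 (Kdm6b and Tet1) and 0.84 (Kdm2b and Tet1). Between these groups of genes r ranged from -0.18 (Kdm3a with Kdm6b, and Kdm5b with Kdm6b) to 0.21 (Kdm4b with Tet1). The groups were not closed: Kdm4a had r of 0.78 with Kdm2b and 0.73 with Kdm6b, and Kdm4c had 0.74 with Kdm3a, 0.66 with Kdm5b and 0.64 with Kdm4b. The mice fall into the 2 genotypes and share their libraries, so these values are descriptions. The 5 genes most like Kdm4b among 10180 with a mean of at least 10 CPM were Gm2308, Gm14760, Gm11960, Gm13394 and Hgfac (r 0.9988 to 0.9995, 6 mice). The first 4 are processed pseudogenes, whose reads cannot be told apart from those of near-identical copies, and Hgfac encodes the activator of hepatocyte growth factor. In all, 454 genes had r of at least 0.95 with Kdm4b.

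The order of the 10 genes by level depends on the gene length used. By deposited RPKM (reads per kilobase of gene, scaled by the upper quartile, mean of 3 TG- mice ± SD) Kdm6b was highest at 6.71 ± 0.92. Tet2 at 3.46 ± 0.26 and Kdm4a at 3.45 ± 0.16 came next, and these neighbours overlapped. Kdm3a stood at 2.75 ± 0.13, Tet3 at 2.48 ± 0.15, Kdm4c at 2.01 ± 0.052, Kdm4b at 1.65 ± 0.11, Kdm5b at 1.14 ± 0.091, Kdm2b at 0.27 ± 0.039 and Tet1 at 0.086 ± 0.022, with no overlap between neighbours below Kdm4a. The means of the TG+ mice were 4.17 ± 0.57 for Kdm3a and 2.67 ± 0.082 for Kdm4b. In TG+ mice Kdm3a overlapped with Tet2 (3.88 ± 0.94) and Kdm4a (3.61 ± 0.31), and Kdm4b overlapped with Tet3 (2.51 ± 0.17).

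The length obtained from counts, library size and these RPKM values was 0.87 to 4.09 times the summed exons of the gene in GENCODE M21, lowest for Tet3 and highest for Kdm2b, beside a median of 1.34 over 18204 genes tested. This ratio also carries the scaling of the RPKM values, which is common to all genes, so only its spread between genes bears on their order. By CPM per kilobase of those exons, an alternative chosen after seeing the data, Kdm4a was highest in TG- mice (10.8 ± 0.49), ahead of Kdm6b (7.05 ± 0.96), and Kdm4b (4.37 ± 0.28), Kdm3a (4.24 ± 0.20) and Kdm4c (4.06 ± 0.11) followed with overlapping values. On this scale Tet2 was at 3.03 ± 0.22 and Tet3 at 2.13 ± 0.13. Kdm5b, Kdm2b and Tet1 were the lowest on both scales, and Tet1 was the last.

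In the rest of the demethylase family, 3 of 16 JmjC genes tested rose and 1 fell at an adjusted p below 0.05, with a median log2 fold change of 0.013 (Kdm4d had too few reads to be tested). Hr, a lysine 9 demethylase known from hair growth, was at 3.05, 3.51 and 3.72 CPM in TG+ and at 2.16, 1.80 and 1.84 CPM in TG- mice, a log2 fold change of 0.82. Jmjd6, a JmjC protein known to hydroxylate lysines of splicing factors, was at 37.4, 32.0 and 31.19 CPM in TG+ and at 23.69, 19.79 and 24.09 CPM in TG- mice, a log2 fold change of 0.57. Hr and Jmjd6 kept their call whichever mouse was left out. The calls of Kdm2a (log2 fold change 0.23, higher) and of the Y-linked Uty (-0.22, lower) were lost in 3 and 5 of the 6 analyses that left out 1 mouse.

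The 2 demethylases that use flavin in place of oxoglutarate went apart. Kdm1a (LSD1) rose, at 37.52, 34.36 and 38.22 CPM in TG+ and 25.62, 25.51 and 25.6 CPM in TG- mice, with a log2 fold change of 0.52 (SE 0.059, adjusted p = 0.000869 in edgeR), and it was called in every analysis. Kdm1b fell by 0.24 on the log2 scale (adjusted p = 0.0361), a call kept in 1 of 6 analyses without 1 mouse.

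Of 26 histone methyltransferases 0 rose in edgeR's test (2 at an unadjusted p below 0.05, 0 in DESeq2, 1 in limma with 12 kidneys, 3 with scaling by library size alone), and Ezh1, a catalytic subunit of Polycomb repressive complex 2, fell by 0.25, a call kept in 1 of 6 analyses without 1 mouse. Of 15 partners of the demethylases 0 rose (0 also at an unadjusted p below 0.05 and in DESeq2, but 1 in limma with 12 kidneys and 1 with scaling by library size alone) and the corepressor Ncor1 fell by 0.27, kept in 2 of 6. In the DNA methylation machinery 3 of 19 genes rose (Dnmt3l could not be tested). These were Uhrf1 (0.76), which recruits the maintenance methyltransferase, the stress gene Gadd45b (0.67) and the repair nuclease Apex1 (0.38), kept in 1, 5 and 2 of 6. Gadd45g fell by 1.16, kept in 3 of 6. Dnmt1 and Dnmt3a, the main methyltransferases, had log2 fold changes of -0.0076 and -0.069, were not called, and Tdg, which excises the products of TET oxidation, had 0.13.

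Of 18 genes for enzymes that make or use 2-oxoglutarate and related acids, 9 fell, with a median log2 fold change of -0.20. Got2, the mitochondrial aspartate aminotransferase, fell by 0.38 and the succinate dehydrogenase subunit Sdhb by 0.28. Both calls held whichever mouse was left out, whereas the count of falling genes was 4 without 43-50 and 5 without 43-29, 43-75 or 43-76, 2 with scaling by library size alone, 13 in DESeq2, 15 in limma with 12 kidneys and 14 at an unadjusted p below 0.05. The proximal tubule markers above fell in the same mice, and their part in this was not tested.

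Of 12 other 2-oxoglutarate dioxygenases tested, 8 rose and 1 fell, and 5 of the 8 passed the study's threshold (P4ha3 had too few reads to be tested). Egln3, a prolyl hydroxylase of HIF, was at 479.2, 348.6 and 495.6 CPM in TG+ and at 15.34, 13.03 and 15.15 CPM in TG- mice, a log2 fold change of 4.93. Plod2, a collagen lysyl hydroxylase, had 3.40, and P4ha2, a collagen prolyl hydroxylase subunit, 2.26. Egln2, another HIF prolyl hydroxylase, fell by 0.28 (adjusted p = 0.0062 in edgeR). These 9 calls held whichever mouse was left out. No test of the difference between the lists was made.

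**Figure D4:**
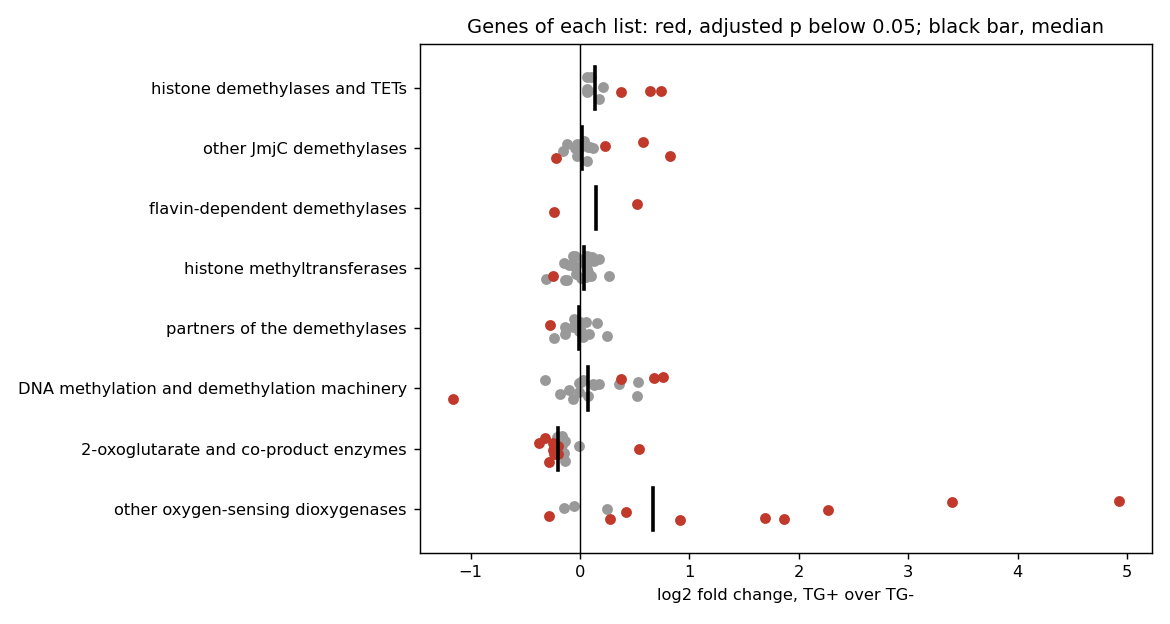
Log2 fold change of TG+ over TG- (horizontal axis) of each gene tested in 8 lists. Red points had an adjusted p below 0.05, grey points did not, and the black bar is the list's median. The 10 genes sit between 0.060 and 0.74, and the other oxygen-sensing dioxygenases reach 4.93.

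By GENCODE M21 on GRCm38, Kdm4b lies on chromosome 17 (56326062 to 56402870, plus strand), Kdm3a on chromosome 6 (71588972 to 71632990, minus strand) and Kdm5b on chromosome 1 (134560171 to 134635285, plus strand), and none shares exon bases with another gene of the table. Among the 10 genes, Kdm2b shares 627 exon bases with Rnf34 and 199 with A930024E05Rik, and Kdm6b shares 286 with Kdm6bos, each on the opposite strand, so that without strand in the counting their reads could not be told apart. Rnf34 had 8057 reads in all and fell by 0.23 on the log2 scale (adjusted p = 0.0197 in edgeR), A930024E05Rik had 174 reads and a log2 fold change of 0.76 (adjusted p = 0.060 in edgeR, not called), and Kdm6bos had -0.011.

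The transgene encodes a HIF subunit, so the starts of the genes were searched for the core of the HIF response element. This core is ACGTG or GCGTG on either strand (ACGTG is also part of the E-box CACGTG). The search was made with the 3 calls known. The windows were those of RefSeq on GRCm38.p6, 250 bases before to 50 after each start, and 8 of the 10 genes had 14 of them (Kdm4b and Kdm6b had no entry). A match is found in 43.8% of all 32851 RefSeq promoters of that length, with ACGTG in 19.6% and GCGTG in 32.4%. Of the 14, 8 hold at least 1 and 6 none. Both forms of the core contain a CpG. The median CpG count of all promoters is 7, whereas these windows range from 0 to 57 and most exceed 7. The share over all promoters is thus not a like background. Some of the 18 matches, counted window by window, stand below with 10 bases to each side, read on the strand of the gene. Those of Kdm2b and most of those of Kdm4c are not listed. Capitals mark the listed match, and further matches in the flanks of the Kdm4c stretch are in lower case. The matches show that both called genes with an entry and genes not called hold the core.
Kdm3a (chr6:71632930-71632954, minus strand): gggaggctgtGCGTGtcttgtgaga
Kdm5b (chr1:134559939-134559963, plus strand): aaaatatatgACGTGattgatggat
Kdm5b (chr1:134560149-134560173, plus strand): gaggagcactGCGTGgggtagcggc
Tet2 (chr3:133544392-133544416, minus strand): gcatgccagtCACGTccgccccctc
Kdm4c (chr4:74251827-74251851, plus strand): acgtgggggcGCGTGcgccacacgc

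The match of Kdm3a begins 27 bases before its start, at 1 of 3 starts, and those of Kdm5b begin 229 and 19 bases before. That of Tet2, not called, begins 16 bases before. Kdm4c, also not called, holds 6 matches at 1 start (4 of them in 2 CACGTG, read on both strands) and 0 at the other, and Kdm2b holds 1 to 3 at each of its 4 starts, of which 2 have windows that overlap and share the same 3 matches. The windows of Kdm4a, Tet1 and Tet3 hold none. A match is a description of these letters and not of binding.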

How the data were processed

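Total RNA of kidney cortex was made into TruSeq libraries and sequenced by the authors as 51-bp single-end reads, analysed with the Tuxedo tools. The submitters' processing notes name mm9. The counting program, annotation and use of strand are not given in the sources used here. The authors deposited raw read counts of 37681 Ensembl genes in 12 libraries. They also deposited RPKM values, for which, as read from the header, they added 1 to every count and applied upper-quartile scaling. The 12 log2 RPKM columns, and the authors' columns of fold changes, p-values and q-values, were not used here.

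Counts of both kidneys of a mouse were added, as they are not independent, giving 48052131 to 60506785 reads per mouse. In R 4.3.3, edgeR 4.0.16 (with limma 3.58.1) kept genes by filterByExpr, scaled by TMM and applied its quasi-likelihood test. Adjusted p-values are Benjamini-Hochberg over 19399 genes. CPM and fold changes carry no interval for counting error alone. The procedure was tested on simulated data. The 2-sided exact permutation test used the 20 assignments of 3 against 3 mice. Symbols and positions came from GENCODE M21 (GRCm38), matched by Ensembl identifier for 32642 genes, and no coordinate was converted from mm9. The 189 genes of 14 lists were all found.

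The 10 genes and the lists were chosen with earlier results of these data known. The text names all 10, up to 3 genes highest and lowest among those called in each list of enzymes or partners, and the 5 genes most correlated with Kdm4b. Some genes that this rule picks are not reported here. Kdm3b, Kdm5a, Kdm5c, Kdm6a, Dnmt1, Dnmt3a, Tdg, Hif1a and the genes that share exon bases were named for their roles, with their values seen. The alternatives in scaling and testing were DESeq2 1.42.0, upper-quartile factors, library size alone, centring on the median gene and no filter. The others were a block for the pairs of mice named below, each kidney alone, 12 kidneys in limma with duplicateCorrelation, and leaving out each mouse. Python 3.11.15, pandas 2.3.3, numpy 2.4.6, scipy 1.17.1 and matplotlib 3.10.9 were used for tables and plots.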

Additional observations from a re-analysis of the deposited data

How the results depend on the processing

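With 3 mice per group, no exact permutation test can reach 0.05, and the intervals of Tet1, Tet2, Kdm2b and Kdm6b include a log2 fold change of 0.38, that of Kdm5b. Across the 15 alternatives the number of the 10 genes called stayed at 3 higher and 0 lower at an adjusted p below 0.05, and at 0 at the study's threshold. Log2 fold changes of genes not called reversed in 5 cases: Kdm2b gave -0.0534 without 43-49 and -0.0404 without 43-26 (up to 0.171 without any other mouse), Kdm6b gave -0.0988 and -0.0482 (up to 0.139), and Tet1 gave -0.0121 without 43-26 (up to 0.365). Over the analyses without 1 mouse, genes called at the study's threshold were 469 to 633 higher and 29 to 50 lower, and at an adjusted p below 0.05 they were 1985 to 2757 higher and 1199 to 2023 lower. The lowest of these came without 43-76, or for the 29 without 43-50, and 1262 were lower at an adjusted p below 0.05 without 43-50. Scaling by library size alone gave 22 lower genes at the study's threshold, and 4511 higher and 947 lower at an adjusted p below 0.05. It raised the median log2 fold change by its construction, as the TMM factors of TG+ mice are larger, and for the other changes the cause was not tested.

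The name of the table that was deposited groups the mice as 3 pairs, and the labels do not say whether a pair comes from the same litter. Deviations from the group means correlated at 0.31 (43-26 and 43-29), 0.28 (43-50 and 43-49) and -0.060 (43-76 and 43-75). Between TG- and TG+ mice of different pairs they correlated at -0.36 to 0.098. The pair of 43-76 and 43-75 lay within this range and the other pairs above it, so the pairs were not taken as shown by the data. With the replicate block for these pairs, 3413 genes were higher and 2499 lower at an adjusted p below 0.05, 779 and 46 at the study's threshold, and the log2 fold changes of Kdm4b, Kdm3a and Kdm5b were 0.74, 0.63 and 0.38. It changed no call among the 10 genes. Of the genes not called, Kdm2b, Kdm4a and Kdm4c were higher in the TG+ mouse of each of the 3 pairs. The share of all genes tested with this pattern was not computed, so it is no evidence of a rise. With the block the SE was 0.069 for Kdm2b (adjusted p = 0.49 in edgeR), 0.052 for Kdm4a and 0.088 for Kdm6b, each smaller than without it. With the block 1 of the partners of the demethylases and 2 of the other nephron markers were called higher, 2 genes of the DNA methylation machinery rose (Uhrf1 was no longer called), 8 enzymes of 2-oxoglutarate and related acids fell, and the immune, stroma, proliferation and falling proximal tubule counts were 15, 8, 6 and 11.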
